A study of Mus musculus with 18 samples.

Results

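The 9 genes described here encode the exchangeable subunits and the ATPases of the BAF chromatin remodelling complex of mouse. They were taken by gene symbol from the deposited tables, and all 9 were found among the 32941 genes that each of the 4 tables lists. Actl6a, Ss18 and Phf10 encode the subunits of neural progenitors, and Actl6b, Ss18l1, Dpf1 and Dpf3 those of neurons. Smarca4 and Smarca2 encode the alternative ATPases.

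BAF complexes use the energy of ATP to slide or evict nucleosomes, and each complex is built around a single ATPase, SMARCA4 (BRG1) or SMARCA2 (BRM). When a mouse neural progenitor leaves the cell cycle, the actin-related protein ACTL6A is exchanged for ACTL6B, SS18 for SS18L1 (CREST) and the PHD-finger protein PHF10 for DPF1 or DPF3. The repressor REST holds down microRNA-9 and microRNA-124 in progenitors, and both microRNAs act on the 3′ untranslated region of Actl6a mRNA once REST is lost.

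Gene expression had been measured by RNA sequencing in 18 libraries from a study of peroxisomal ether lipids in the developing cortex. Of these, 6 were wild-type (WT) brain at embryonic days 11, 12, 13, 14, 16 and 18 (E11 to E18), with 1 library per stage. The series design text speaks instead of cortex and of triplicates, and whether a stage library pools several samples is not stated. The other 12 formed 3 comparisons with 2 libraries per group. In primary neural stem cells, a short hairpin against Pex7 (Pex7sh, genotype PEX7-knockdown) was compared with a scrambled hairpin (Scramble, WT). In samples labelled brain, PLAAT3-PEX11 overexpression was compared with WT in a first set (PLA1 against Ctrl1) and in another set whose names carry the word neuron (Neuron-PLA against Neuron-ctrl). The labels do not give the strain, the age of the overexpression samples, the promoter or vector, or how the neurons were obtained. Nothing in the labels shows the 2 libraries of a group to be separate animals or cultures. The p-values therefore measure the spread between these libraries alone, which may be technical.

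Values are RPKM, reads scaled to exon length and to the reads of the library, so genes can be compared per length within a library. Recovered read totals were 41501880 to 54373317 in the stages and 16147911 to 28104927 in the other libraries. Plaat3 and Pex7 followed the labels, and no Pex11 gene was checked, since the labels do not say which was used. Plaat3 stood at 31.4 and 29.1 RPKM in PLA1 against 0.413 and 0.431 RPKM in Ctrl1, and at 19.0 and 20.8 RPKM in Neuron-PLA against 0.0699 and 0.230 RPKM in Neuron-ctrl. Pex7 had 0.500 and 0.669 RPKM in Pex7sh against 1.19 and 1.22 RPKM in Scramble, under the level at which genes were tested. The libraries labelled neural stem cells held 825 to 1163 RPKM summed over 9 radial glia markers and 1103 to 1498 RPKM summed over 12 pan-neuronal markers. They also held 215 to 428 RPKM summed over 5 oligodendrocyte lineage markers, beside 2.69 to 69.9 RPKM in the libraries of the other tables. Their 5 astrocyte markers summed to 29.3 to 39.6 RPKM. The libraries named for neurons held 165 to 321 RPKM of the radial glia markers and 2392 to 2486 RPKM of the pan-neuronal ones. In such bulk samples, fewer cells of a type and less RNA per cell cannot be told apart.

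The first question was how the progenitor and neuronal subunit genes moved as the brain matured. Between E11 and E18 the 3 progenitor subunit genes fell, 2 of the 4 neuronal subunit genes rose, and the ATPase genes moved in opposite directions. With 1 library per stage, the test was the slope of log2(RPKM + 1) on embryonic day in limma, adjusted over 12921 genes. Of the 8 members tested, 3 rose and 4 fell, beside 19.6% of all genes tested that rose and 25.5% that fell (45.1% in either direction). The E18 level was at least 2-fold higher than that at E11 for 4 of the 8 and at least 2-fold lower for 2, beside 18.3% and 18.7% of all genes tested.

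Actl6a (chromosome 3, 32706298 to 32726973, plus strand, mm10) was the member with the steepest fall. It stood at 41.6 RPKM at E11, 35.3 at E12, 29.7 at E13, 31.0 at E14, 17.3 at E16 and 6.04 at E18. The level was lower at the later stage in 4 of 5 steps, and the E18 level was 14.5% of that at E11. The slope was −0.35 log2 units per day (SE 0.047, adjusted p = 0.00154). Actl6a overlaps Mrpl47, a mitochondrial ribosomal protein gene of the opposite strand, over 452 of its 3886 exon bases, and Mrpl47 also fell (slope −0.17, adjusted p = 0.00181). Whether reads were counted by strand is not given in the sources used here, and the part of the shared bases in the Actl6a values was not tested.

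Actl6a is the subunit gene for which a microRNA mechanism is known in mouse, so the microRNA and its match are shown. In the mature arms of microRNA-9 from RefSeq (GRCm38.p6), capitals mark the seed, bases 2 to 8. Below them stands the stretch of the 371-base 3′ untranslated region of Actl6a (GENCODE M21, plus strand, chr3:32726632-32726654) in which capitals mark the complement of the miR-9-3p seed.
mmu-miR-9-3p: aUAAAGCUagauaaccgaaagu
mmu-miR-9-5p: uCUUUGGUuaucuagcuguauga
Actl6a 3′ untranslated region: acgtctgtAGCTTTAgtacactc
The complement AGCTTTA of the miR-9-3p seed occurred 1 time in this region and its shorter form GCTTTA 2 times, while the complement ACCAAAG of the miR-9-5p seed occurred 0 times. The match is a description of the sequence. Mature microRNAs were not measured in these libraries.

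Ss18, which encodes a transcriptional coactivator subunit, had 8.76, 7.69, 6.95, 5.60, 5.16 and 2.48 RPKM from E11 to E18. It was lower at each later stage, and the slope was −0.20 per day (SE 0.028, adjusted p = 0.00186). Phf10, which encodes the PHD-finger subunit of progenitors, had 21.4, 19.2, 16.2, 14.2, 13.6 and 12.9 RPKM. It too was lower at each later stage, but its E18 level was still 60.4% of that at E11, and the slope was −0.10 (SE 0.024, adjusted p = 0.0138). Phf10 shares 470 of 4914 exon bases with 1600012H06Rik of the opposite strand, which fell alike (slope −0.08, adjusted p = 0.0138).

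Actl6b (chromosome 5, 137553517 to 137569582, plus strand) was the neuronal counterpart of Actl6a. It stood at 15.9, 27.5, 30.2, 28.9, 47.2 and 53.2 RPKM from E11 to E18. The level was much higher at E12 than at E11 and at E16 than at E14, while the 95% Poisson intervals of E13 (29.5 to 30.9 RPKM) and E14 (28.2 to 29.6 RPKM) overlapped. These intervals cover counting error only. The slope was +0.22 per day (SE 0.035, adjusted p = 0.00283), and the E18 level was 3.34 times that at E11.

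Dpf1, the neuronal PHD-finger subunit gene, had 17.2, 24.7, 25.8, 26.1, 31.9 and 38.2 RPKM and was higher at each later stage (slope +0.13, SE 0.025, adjusted p = 0.00506). Ss18l1 had 9.47, 18.8, 21.6, 18.2, 23.6 and 23.6 RPKM. Its level at E12 was 1.98 times that at E11, and E16 and E18 lay within each other's Poisson intervals. With a slope of +0.13 (SE 0.048, adjusted p = 0.0593) Ss18l1 did not pass the threshold, although it did without E13 (+0.14, adjusted p = 0.0443). Dpf3, the other neuronal PHD-finger gene, was the lowest member, with 0.465 to 0.831 RPKM from 103 to 187 reads, and was not tested.

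Smarca4 was the most abundant member from E11 to E16, with 85.8, 88.9, 88.4 and 85.4 RPKM at E11, E12, E13 and E14, then 72.4 at E16. At E18 Smarca4 had 53.0 RPKM, beside 53.2 RPKM for Actl6b. The 4 early stages lay within 4 RPKM of each other, and the lower values were those of E16 and E18. The slope was −0.10 (SE 0.026, adjusted p = 0.0182), and without E18 it was −0.05 (adjusted p = 0.285) and not called. Smarca2 had 3.23, 6.22, 7.94, 6.69, 12.2 and 13.4 RPKM and rose at +0.23 per day (SE 0.040, adjusted p = 0.00405). The E18 level of Smarca2 was 4.17 times that at E11, yet at E18 it was still 20.2% of the summed ATPase RPKM.

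**Figure D1:**
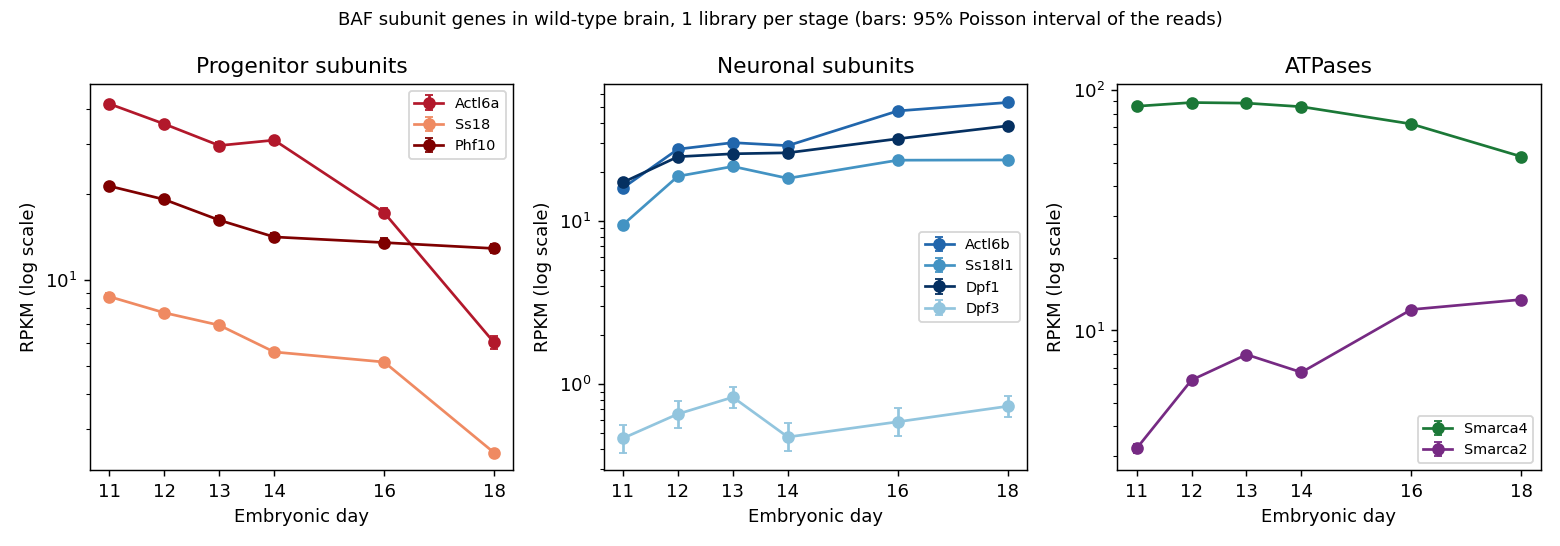
RPKM (log axis) of the progenitor subunit, neuronal subunit and ATPase genes against embryonic day in WT brain, 1 library per stage; bars are 95% Poisson intervals of the reads, which Ss18 lacks at all stages but E11 because its other values did not give whole reads. Actl6a falls from 41.6 to 6.04 RPKM while Actl6b climbs from 15.9 to 53.2 RPKM, and Dpf3 stays under 1 RPKM.

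The share of the neuronal or later paralogue was higher at E18 than at E11 in each pair or group. Actl6b made up 27.7% of the summed Actl6a and Actl6b RPKM at E11, 43.8% at E12, 50.4% at E13, 48.3% at E14, 73.2% at E16 and 89.8% at E18. The sum of both stayed between 57.5 and 64.5 RPKM over the same stages, so the makeup changed more than the total. Ss18l1 was the larger of its pair from the start, at 52.0% of Ss18 plus Ss18l1 at E11 and 90.5% at E18. Dpf1 with Dpf3 made up 45.3% of the summed Phf10, Dpf1 and Dpf3 RPKM at E11 and 75.1% at E18. This PHD-finger sum leaves out Dpf2, a relative of Dpf1 with 26.2 RPKM at E11 and 14.5 RPKM at E18. Smarca2 made up 3.62% of the ATPase sum at E11 and 20.2% at E18, so Smarca4 remained the larger. These shares are descriptions without a test.

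Marker lists moved over the same stages. Summed pan-neuronal markers were at 1107 RPKM at E11 and 3611 RPKM at E18 (9 of 12 rose), and proliferation markers at 601 RPKM at E11 and 46.3 RPKM at E18 (9 of 9 fell). Of the radial glia markers, 7 of 9 fell and 1 rose, and their sum was 1041 RPKM at E11 and 647 RPKM at E18. Among other cell types, erythroid markers were at 5733 RPKM at E11 and 211 RPKM at E18, microglia markers at 16.8 RPKM at E11 and 39.1 RPKM at E18, and endothelial and pericyte markers at 18.4 RPKM at E11 and 50.5 RPKM at E18. The part of cell composition in the members' slopes was not tested.

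Subunits outside the exchanged set were also examined. Of 21 other BAF subunit genes, 2 rose and 7 fell, with a median slope of −0.04 per day beside −0.02 over all genes tested, and the count is near the background share given above. The falls included Dpf2, the widely expressed relative of Dpf1 (26.2 RPKM at E11, 14.5 at E18; slope −0.12, adjusted p = 0.00476), and Smarce1, an HMG-box subunit (49.0 and 23.8 RPKM; −0.15, adjusted p = 0.00506). Brd7 and Pbrm1, subunits of the PBAF form, fell as well (slopes −0.11 and −0.13). Dpf2 had 26.6 RPKM at E12 and 23.2 RPKM at E14, close to Dpf1 at those stages.

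Among 11 genes of the REST, microRNA and splicing-factor circuit, 0 rose and 8 fell, with a median slope of −0.17. Rest had 3.58, 3.47, 3.30, 2.703, 1.90 and 0.876 RPKM from E11 to E18 (slope −0.19, adjusted p = 0.00221). Mir9-3hg, a host transcript of microRNA-9, had 73.8 RPKM at E11 and 13.4 at E18 (−0.31, adjusted p = 0.00334), and Mir124-2hg, a host of microRNA-124, had 15.8 and 6.60 RPKM (−0.17, adjusted p = 0.00233). Ptbp2, the neuronal polypyrimidine tract binding protein gene, had 35.9 and 15.5 RPKM (−0.16, adjusted p = 0.00378). Mir124a-1hg, at these stages a more abundant host of microRNA-124, went the other way without passing the test. It had 39.8, 62.3, 85.4, 70.7, 96.3 and 71.6 RPKM from E11 to E18 (slope +0.10, adjusted p = 0.147). The host transcripts of microRNA-124 thus did not move alike. A host transcript's level is not the level of its mature microRNA.

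Of 17 genes of other remodeller ATPases, 1 rose and 7 fell (median slope −0.06), also near the background share of 45.1%. Hells, a SNF2-family helicase of DNA methylation and replication, had 13.0 RPKM at E11 and 0.646 at E18 (−0.42, adjusted p = 0.000652). Smarca5, the ISWI ATPase of proliferating cells, had 28.4 and 4.51 RPKM (−0.32, adjusted p = 0.000653). Chd7 and Chd1 fell with slopes of −0.28 and −0.17.

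The second question was whether PLAAT3-PEX11 overexpression moved these genes in the first set. In PLA1, Actl6a and Phf10 were higher than in Ctrl1 while Actl6b, Ss18l1, Dpf1, Smarca4 and Smarca2 were lower. Of the 9 members tested, 2 were called higher and 5 lower, beside 16.3% and 13.2% of the 11623 genes tested (29.6% in either direction). The groups did not overlap for 8 of 9 members, but this was so for 69.3% of all genes tested.

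Actl6a stood at 93.5 and 88.6 RPKM in PLA1 against 72.3 and 76.6 RPKM in Ctrl1. Both PLA1 libraries were above both Ctrl1 libraries, and the log2 change was +0.29 (SE 0.075, adjusted p = 0.0272). The call was lost without any single library, with adjusted p = 0.0756 and 0.0543 without PLA1 replicates 1 and 2, and 0.186 and 0.0658 without Ctrl1 replicates 1 and 2. It was also lost with median-ratio scaling (+0.23, adjusted p = 0.0712). The overlapping gene Mrpl47 was at 7.93 and 6.54 RPKM in PLA1 against 9.49 and 7.98 RPKM in Ctrl1.

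Phf10 had 4.25 and 5.83 RPKM in PLA1 against 2.18 and 2.26 RPKM in Ctrl1, with both PLA1 libraries above both Ctrl1 libraries. Its log2 change of +0.89 (SE 0.17, adjusted p = 0.00968) was the greatest rise of a member and held without any 1 library. Ss18 had 8.998 and 7.56 RPKM in PLA1 against 6.85 and 6.36 RPKM in Ctrl1. The groups did not overlap, yet the change of +0.28 (SE 0.13, adjusted p = 0.141) did not pass, and its 95% interval ran from −0.02 to 0.59.

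Actl6b had 6.26 and 6.61 RPKM in PLA1 against 12.3 and 12.8 RPKM in Ctrl1. The level in PLA1 was 0.513 times that in Ctrl1, with a log2 change of −0.87 (SE 0.11, adjusted p = 0.00207). Ss18l1 had 10.2 and 8.92 RPKM in PLA1 against 15.4 and 15.6 RPKM in Ctrl1 (−0.65, SE 0.11, adjusted p = 0.00574). The calls of Actl6b and Ss18l1 held in each of 11 alternative settings.

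Dpf1 had 2.42 and 2.59 RPKM in PLA1 against 5.02 and 4.74 RPKM in Ctrl1, a change of −0.75 (SE 0.14, adjusted p = 0.00916). Without Ctrl1 replicate 1 this call was lost (−0.71, adjusted p = 0.0716). Dpf3 had 0.967 and 1.25 RPKM in PLA1 against 1.25 and 2.71 RPKM in Ctrl1, from 66 to 241 reads. The groups overlapped narrowly, 1 Ctrl1 library stood apart from the other, and the change of −0.46 (95% interval −1.07 to 0.15, adjusted p = 0.221) was not called.

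Smarca4 had 67.5 and 67.4 RPKM in PLA1 against 88.3 and 82.7 RPKM in Ctrl1 (−0.34, SE 0.074, adjusted p = 0.0151). The call was lost without PLA1 replicate 2 (adjusted p = 0.0535) and without Ctrl1 replicate 1 (adjusted p = 0.125). Smarca2 had 10.4 and 9.49 RPKM in PLA1 against 13.3 and 15.7 RPKM in Ctrl1 (−0.50, SE 0.12, adjusted p = 0.0212), and its call was lost without PLA1 replicate 2 (adjusted p = 0.0847) and without Ctrl1 replicate 2 (adjusted p = 0.144). Both ATPase genes were thus lower in PLA1, and Smarca2 made up 13.3% and 12.4% of their sum in PLA1 against 13.1% and 15.9% in Ctrl1.

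**Figure D2:**
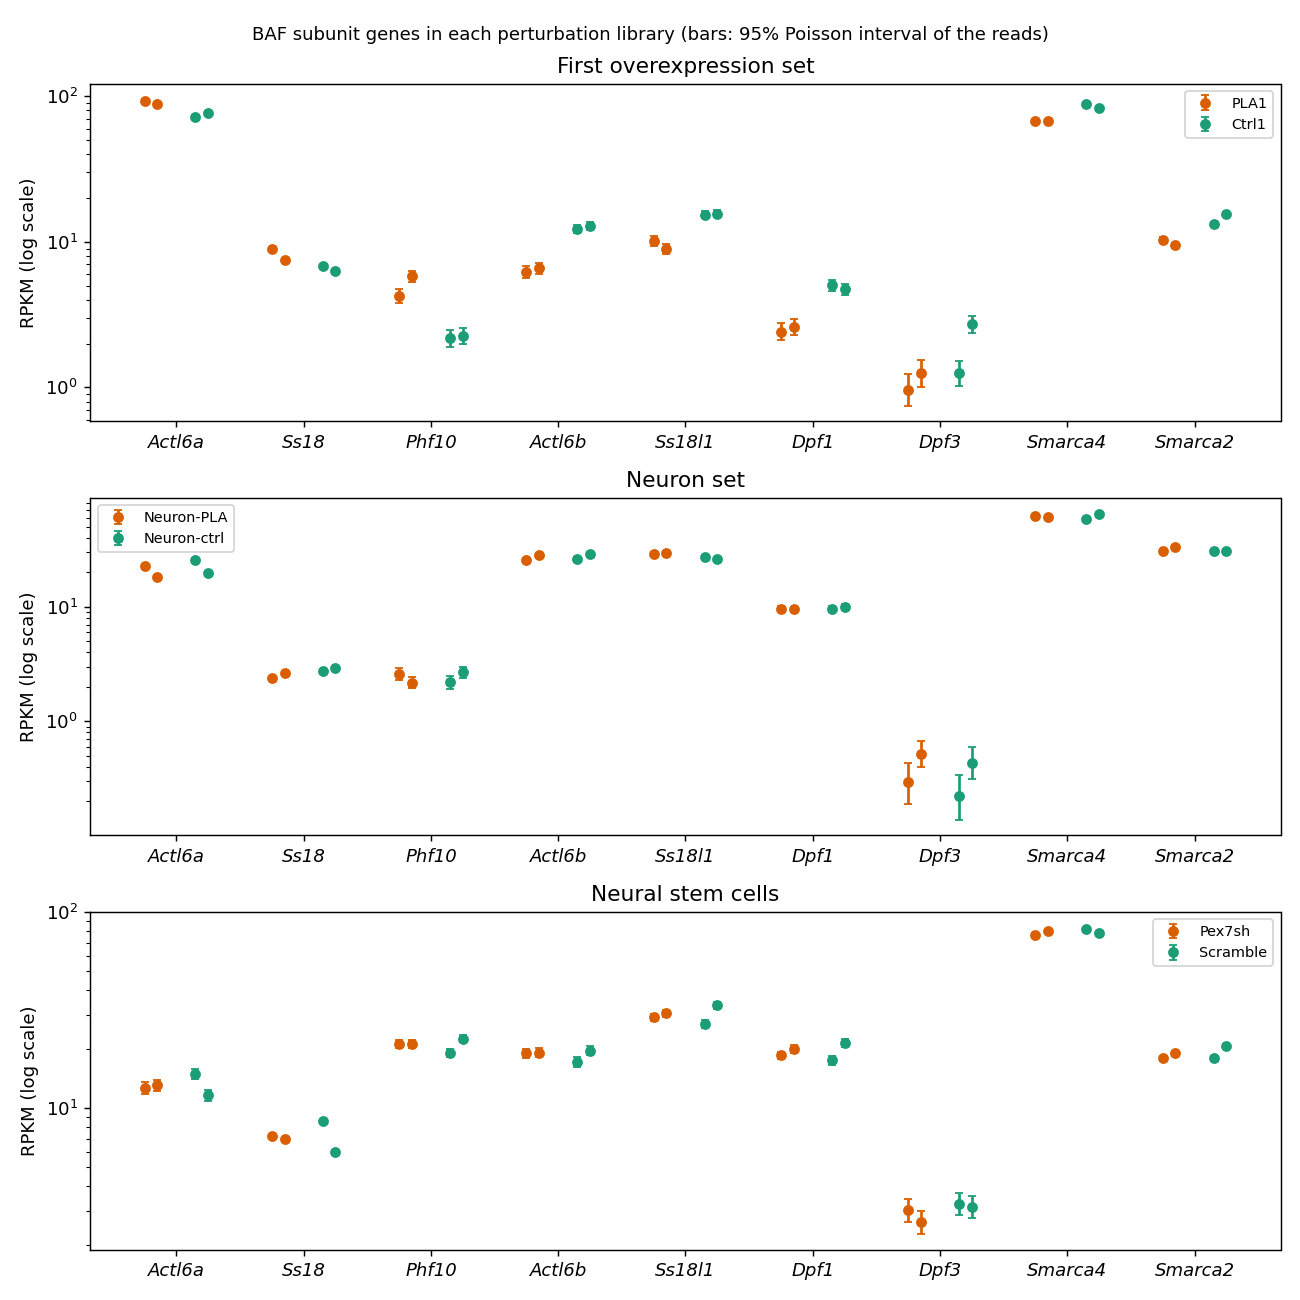
RPKM (log axis) of the 9 members in each library of the first overexpression set, the neuron set and the neural stem cells, treated libraries left and controls right for each gene; bars are 95% Poisson intervals of the reads, not available for Ss18. PLA1 and Ctrl1 are apart for 8 of 9 members, beside 69.3% of all genes tested. The points of the other 2 sets mostly overlap. The groups are apart for 2 of 8 members tested in the neuron set and 1 of 9 in neural stem cells, beside 50% and 22.5% of all genes tested.

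As shares, Actl6b made up 6.27% and 6.94% of the Actl6a and Actl6b sum in PLA1 against 14.5% and 14.4% in Ctrl1. Ss18l1 made up 53.0% and 54.1% of its pair in PLA1 against 69.2% and 71.1% in Ctrl1. Dpf1 with Dpf3 made up 44.4% and 39.7% of the summed Phf10, Dpf1 and Dpf3 RPKM in PLA1 against 74.2% and 76.7% in Ctrl1. Dpf2, left out of that sum, had 47.9 and 47.6 RPKM in PLA1 against 34.9 and 41.3 RPKM in Ctrl1. The values for Dpf1 with Dpf3 are therefore not shares of all PHD-finger RNA. The Actl6b share of Ctrl1 was below that of every stage library, and its Actl6a level was above that of E11. These levels come from separate tables, and the difference between them was not tested.

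Markers moved beside the members in this set. Proliferation markers summed to 558 to 561 RPKM in PLA1 against 329 to 336 RPKM in Ctrl1, and 9 of 9 were higher. Pan-neuronal markers summed to 517 to 525 RPKM in PLA1 against 1003 to 1016 RPKM in Ctrl1, and 7 of 12 were lower. Of the radial glia markers, 5 of 9 were higher and 1 lower (362 to 363 RPKM in PLA1 against 304 to 318 RPKM in Ctrl1). Microglia markers summed to 180 to 189 RPKM in PLA1 against 405 to 439 RPKM in Ctrl1, and 7 of 7 were lower. The part of these shifts in the members' changes was not tested.

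Around the members, 3 of 21 other BAF subunit genes were higher and 1 lower in PLA1 (median log2 change +0.27 beside +0.06 over all genes tested). Of all genes tested, 16.3% were higher and 13.2% lower, so neither count exceeded the background share. The gene that was lower, Bcl11b, encodes a zinc-finger subunit of postmitotic neurons (18.7 and 25.9 RPKM in PLA1 against 39.0 and 42.9 RPKM in Ctrl1; −0.87, adjusted p = 0.00595). Pbrm1 (+0.53, adjusted p = 0.0233), Bcl7b (+0.32, adjusted p = 0.0381) and Dpf2 (+0.32, adjusted p = 0.0442) were higher. With Dpf1 at 2.42 to 5.02 RPKM, the widely expressed Dpf2 was the most abundant gene of the DPF family in these 4 libraries, at 47.9 and 47.6 RPKM in PLA1 against 34.9 and 41.3 RPKM in Ctrl1.

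Of the 11 genes of the REST and microRNA circuit, 5 were higher in PLA1 and 0 lower, beside 16.3% and 13.2% of all genes tested. Their median log2 change was +0.46. Rest had 4.60 and 5.48 RPKM in PLA1 against 2.701 and 2.57 RPKM in Ctrl1 (+0.73, adjusted p = 0.0121). Ptbp1, which blocks neuronal exons in progenitors, had 112.6 and 107.2 RPKM in PLA1 against 76.7 and 77.5 RPKM in Ctrl1 (+0.51, adjusted p = 0.00281). Mir9-3hg (+0.38, adjusted p = 0.0214) and Mir124a-1hg (+0.64, adjusted p = 0.0344) were also higher. Over the first set Mir124a-1hg ranged from 2.84 to 6.22 RPKM, while Mir124-2hg was the more abundant host of microRNA-124. Mir124-2hg had 24.1 and 23.4 RPKM in PLA1 against 26.8 and 25.1 RPKM in Ctrl1. C130071C03Rik, another gene of this list, had 18.8 and 24.0 RPKM in PLA1 against 27.4 and 26.3 RPKM in Ctrl1. Both were below their controls in both PLA1 libraries without being called, while 8 of the 11 changes in the list were positive. Of 16 other remodeller ATPase genes tested, 8 were higher and 0 lower, beside the same background shares. The rises were led by Hells, with 22.5 and 23.9 RPKM in PLA1 against 10.5 and 11.4 RPKM in Ctrl1 (+1.02, adjusted p = 0.000769). Chd7 (+0.91, adjusted p = 0.0017), Chd2 (+0.71, adjusted p = 0.00594) and Chd1 (+0.63, adjusted p = 0.0141) followed.

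In the set named for neurons, the same overexpression was compared with its own controls. Of the 8 members tested 0 were called, beside 0.877% of 11179 genes (0.376% higher and 0.501% lower). In limma, 0 of the 8 had an unadjusted p under 0.05, beside 17.7% of all genes. With limma-voom on the recovered reads, 0 of the 7 members that had them were called at an adjusted p under 0.05, beside 3.11% of all genes, and 18.3% of all genes had an unadjusted p under 0.05. The groups did not overlap for 2 of 8, against 50% of all genes tested. Dpf3 was not tested, with 0.293 and 0.522 RPKM in Neuron-PLA against 0.222 and 0.436 RPKM in Neuron-ctrl, from 21 to 62 reads.

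Actl6a had 22.5 and 18.3 RPKM in Neuron-PLA against 25.5 and 19.5 RPKM in Neuron-ctrl, a change of −0.13 with a 95% interval of −0.50 to 0.24. Actl6b had 25.8 and 28.3 RPKM in Neuron-PLA against 26.2 and 28.6 RPKM in Neuron-ctrl (−0.02, interval −0.26 to 0.23). Within each group the 2 libraries differed by more than the group means did. The Actl6b share was 53.3% and 60.7% in Neuron-PLA against 50.6% and 59.4% in Neuron-ctrl.

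Ss18 was the member below its controls in both libraries, with 2.41 and 2.62 RPKM in Neuron-PLA against 2.76 and 2.90 RPKM in Neuron-ctrl (−0.13, interval −0.55 to 0.30). Ss18l1 was above them in both, with 28.9 and 29.7 RPKM in Neuron-PLA against 27.1 and 26.2 RPKM in Neuron-ctrl (+0.13, interval −0.09 to 0.35). Phf10 had 2.59 and 2.18 RPKM in Neuron-PLA against 2.18 and 2.68 RPKM in Neuron-ctrl, and Dpf1 9.61 and 9.53 RPKM against 9.49 and 9.97 RPKM. Both overlapped between the groups.

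Smarca4 had 62.4 and 60.1 RPKM in Neuron-PLA against 58.4 and 64.1 RPKM in Neuron-ctrl, with an interval of −0.20 to 0.20 for its log2 change. Smarca2 had 30.5 and 33.0 RPKM in Neuron-PLA against 31.0 and 30.9 RPKM in Neuron-ctrl, with an interval of −0.19 to 0.26. Smarca2 was higher here than in any other library of the series as deposited, at 32.5% to 35.5% of the ATPase sum. Of the other BAF subunit genes, the circuit genes and the other remodeller ATPase genes, 0 of 21, 0 of 11 and 0 of 16 were called. Endothelial and pericyte markers summed to 4.18 to 4.89 RPKM in Neuron-PLA against 27.5 to 29.2 RPKM in Neuron-ctrl, microglia markers to 69.9 to 80.2 RPKM in Neuron-PLA against 120.6 to 124.5 RPKM in Neuron-ctrl, and radial glia markers to 165 to 205 RPKM in Neuron-PLA against 314 to 321 RPKM in Neuron-ctrl.

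**Figure D3:**
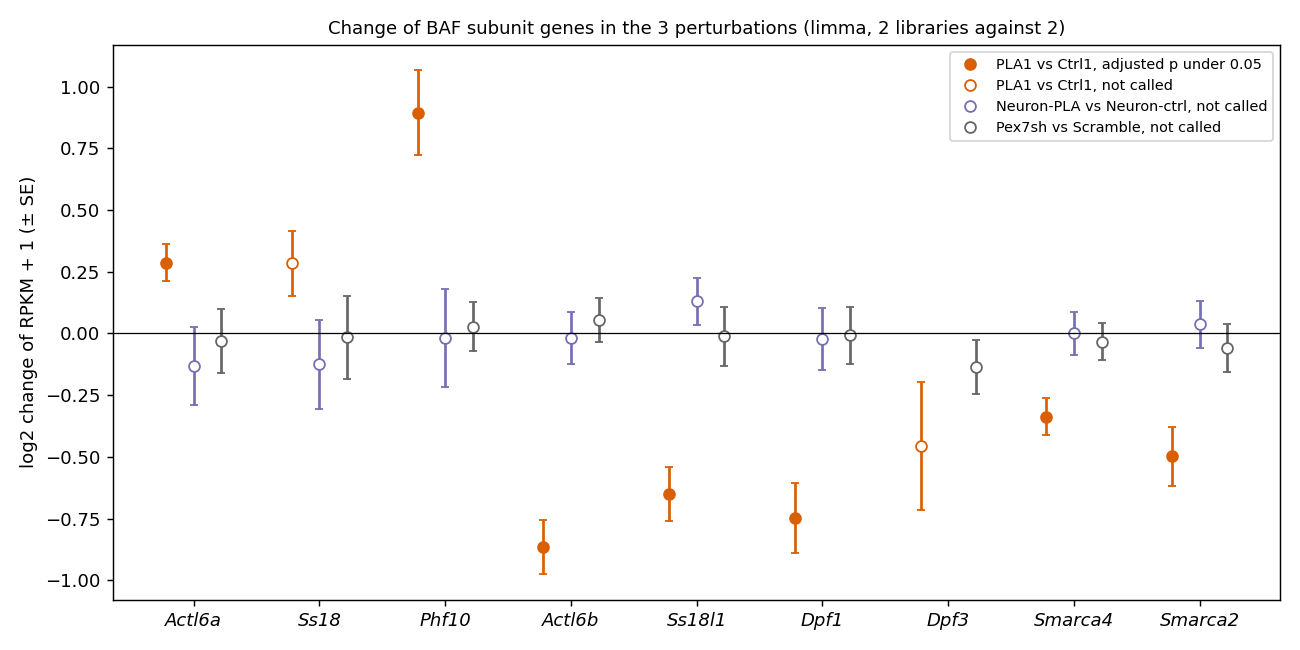
Log2 change of RPKM + 1 (points, bars are ± SE from limma, 2 libraries against 2) of each member in PLA1 over Ctrl1, Neuron-PLA over Neuron-ctrl and Pex7sh over Scramble; filled points have an adjusted p under 0.05. The filled points are all from PLA1 over Ctrl1, from −0.87 for Actl6b to +0.89 for Phf10, and Dpf3 has no point in the neuron set.

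Whether the overexpression effect differed between the 2 sets was tested directly, as the change in the neuron set minus the change in the first set. The difference was called for 4 of 8 members, 3 higher and 1 lower, beside 5.48% and 6.19% of 11705 genes (11.7% in either direction). It was +0.85 for Actl6b (95% interval 0.52 to 1.18, adjusted p = 0.00617) and +0.78 for Ss18l1 (0.47 to 1.09, adjusted p = 0.00707), and both held in each of 14 alternative settings. It was +0.72 for Dpf1 (0.33 to 1.12, adjusted p = 0.0270), a call lost on leaving out any 1 of the 8 libraries (adjusted p = 0.0508 to 0.121). It was −0.91 for Phf10 (−1.48 to −0.35, adjusted p = 0.0459), a call lost without any 1 library other than PLA1 replicate 1 (adjusted p = 0.0584 to 0.151).

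The difference was not called for the ATPases, at +0.53 for Smarca2 (interval 0.19 to 0.88, adjusted p = 0.0526) and +0.34 for Smarca4 (0.09 to 0.58, adjusted p = 0.0786), nor for Actl6a (−0.42, interval −0.84 to 0.00, adjusted p = 0.182) and Ss18 (−0.41, interval −0.86 to 0.04, adjusted p = 0.225). In this test 2 of 21 other BAF subunit genes and 2 of 16 other remodeller ATPase genes were called, each with a negative difference. Of the 11 circuit genes, 1 was called higher and 1 lower, beside 11.7% of all genes tested in either direction. The sets also differed in their controls. Summed proliferation markers were at 67.9 to 72.7 RPKM in Neuron-ctrl and 329 to 336 RPKM in Ctrl1, levels from separate tables that were not tested against each other. The overexpression effect on proliferation markers differed between the sets for 6 of 9, each with a negative difference on the scale used here. The part of these marker shifts in the members' differences was not tested.

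The third comparison asked whether knockdown of Pex7 in neural stem cells moved the members. None of the 9 was called, and neither was any of the 12482 genes tested (0%). At an unadjusted p under 0.05, limma gave 184 genes (1.47%) and limma-voom 116 (0.956%), and limma-voom called 0 after adjustment. No member had an unadjusted p under 0.05. The groups did not overlap for 1 of 9 members, Dpf3, beside 22.5% of all genes tested.

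Actl6a had 12.7 and 13.1 RPKM in Pex7sh against 14.9 and 11.6 RPKM in Scramble. The 2 Pex7sh libraries lay between the 2 Scramble libraries, and the change was −0.03 with a 95% interval of −0.36 to 0.30. Actl6b had 19.0 and 19.2 RPKM in Pex7sh against 17.2 and 19.7 RPKM in Scramble (+0.05, interval −0.18 to 0.28), again between the controls. The Actl6b share was 60.0% and 59.5% in Pex7sh against 53.5% and 62.9% in Scramble.

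The same arrangement held for Ss18, with 7.22 and 6.96 RPKM in Pex7sh against 8.64 and 5.94 RPKM in Scramble, and for Ss18l1, with 29.1 and 30.5 RPKM against 27.0 and 33.5 RPKM. Phf10 had 21.2 and 21.3 RPKM in Pex7sh against 19.1 and 22.7 RPKM in Scramble. Dpf1 had 18.6 and 20.1 RPKM in Pex7sh against 17.5 and 21.5 RPKM in Scramble. In Scramble replicate 1 the progenitor genes Actl6a and Ss18 were higher and the neuronal genes Actl6b, Ss18l1 and Dpf1 lower than in replicate 2, while progenitor Phf10 was lower (19.1 against 22.7 RPKM) and neuronal Dpf3 slightly higher (3.23 against 3.13 RPKM).

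Dpf3 was below its controls in both libraries, with 3.01 and 2.61 RPKM in Pex7sh against 3.23 and 3.13 RPKM in Scramble (−0.14, interval −0.41 to 0.14). Smarca4 had 76.9 and 79.9 RPKM in Pex7sh against 82.1 and 78.5 RPKM in Scramble, and Smarca2 18.0 and 19.1 RPKM against 17.9 and 20.8 RPKM. The widest of the 9 intervals, that of Ss18, ran from −0.45 to 0.42, so a change of that size would not have been told from 0 with these libraries. In Scramble, summed pan-neuronal markers were at 1103 RPKM in replicate 1 and 1498 RPKM in replicate 2. Proliferation markers were at 314 and 183 RPKM, and oligodendrocyte lineage markers at 428 and 215 RPKM. The 2 Pex7sh libraries lay between these values.

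**Figure D4:**
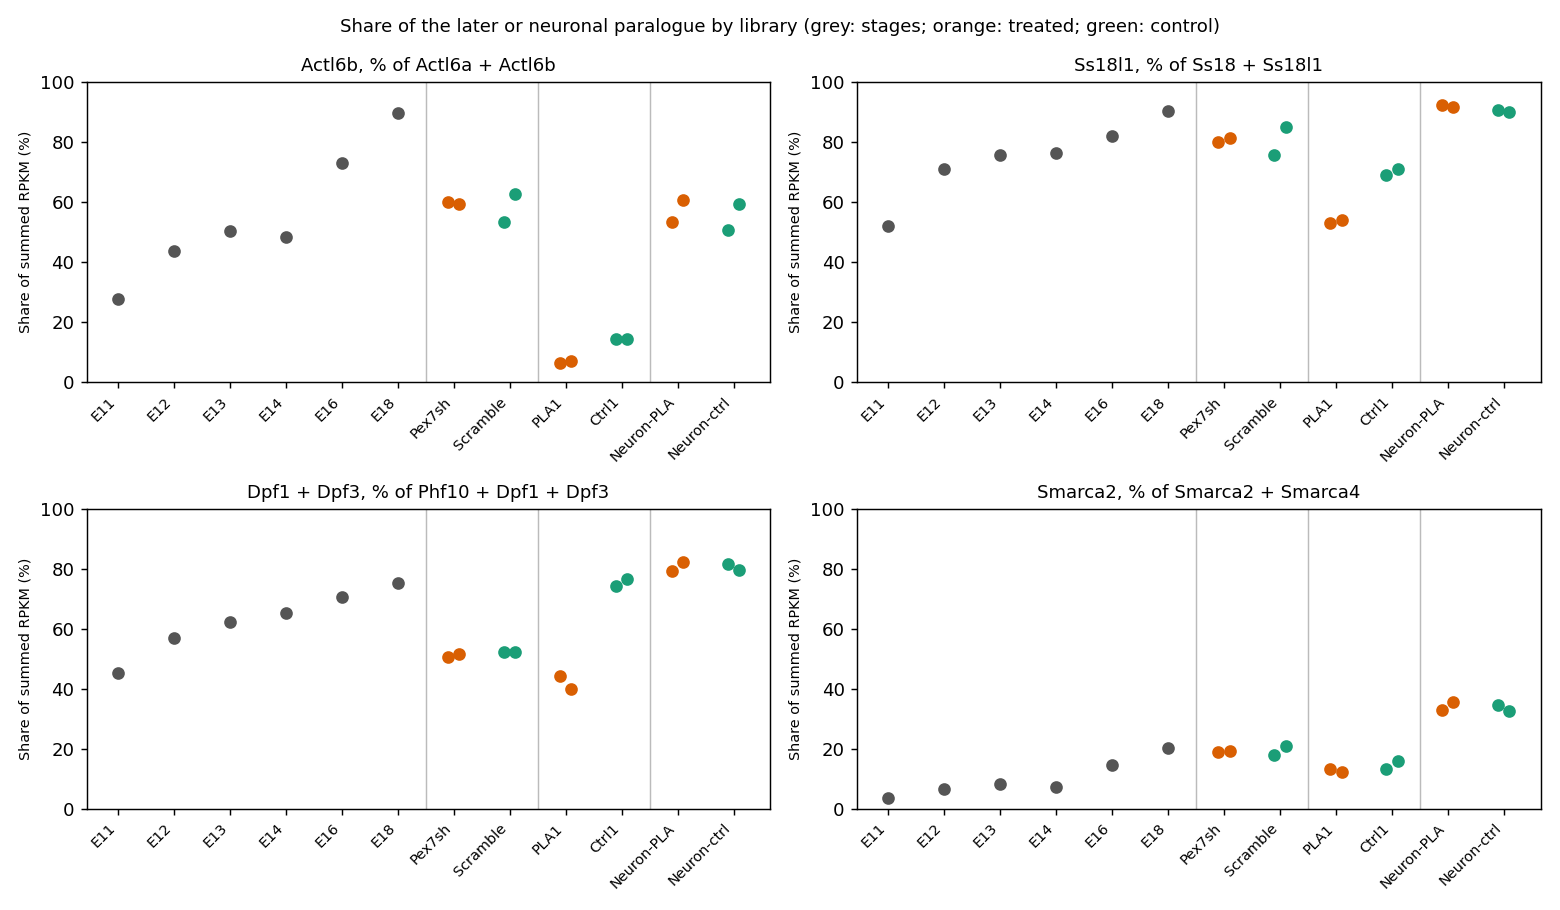
Share of the neuronal or later paralogue in the summed RPKM of its pair or group (y axis, %) in each of the 18 libraries, with stages in grey, treated libraries in orange and controls in green. The Actl6b share climbs from 27.7% at E11 to 89.8% at E18, and in the first set it is 6.27% and 6.94% in PLA1 against 14.5% and 14.4% in Ctrl1.

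Across all 18 libraries, centred within each table, Pearson's r of log2(RPKM + 1) was 0.969 between the neuronal genes Actl6b and Dpf1, 0.914 between Actl6b and Ss18l1, and 0.956 between Actl6b and the ATPase gene Smarca2. Dpf3 was too low to be included. Among the progenitor genes, Actl6a and Ss18 had r = 0.926, while Phf10 had r = 0.475 with Actl6a and 0.522 with Ss18. Actl6a and Actl6b had r = −0.788. These are descriptions over libraries that share tables, stages and treatments. Of 9564 genes compared, those most like Actl6a were Spc25, a kinetochore gene (r = 0.988), Mcm5, a subunit of the replicative helicase, Sinhcaf, Aurka, a mitotic kinase, and Cdc20, an activator of the anaphase-promoting complex (r = 0.981 to 0.985). Those most like Actl6b were Crmp1, Hspa12a, Enc1, Sybu and Tubg2 (r = 0.983 to 0.985).

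Since Actl6a and Actl6b moved in opposite directions, their promoters from RefSeq (GRCm38.p6) are shown, as windows of 300 bases around the start that RefSeq gives, at chr3:32708296-32708595 and chr5:137553296-137553595, both on the plus strand. Capitals mark CCAAT and its reverse complement ATTGG, which do not overlap here.
Actl6a promoter: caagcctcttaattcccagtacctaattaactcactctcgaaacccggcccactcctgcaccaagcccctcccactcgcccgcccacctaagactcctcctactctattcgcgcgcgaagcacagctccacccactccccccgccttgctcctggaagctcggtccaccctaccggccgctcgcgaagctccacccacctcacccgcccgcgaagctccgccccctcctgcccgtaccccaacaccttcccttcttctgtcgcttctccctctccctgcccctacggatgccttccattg
Actl6b promoter: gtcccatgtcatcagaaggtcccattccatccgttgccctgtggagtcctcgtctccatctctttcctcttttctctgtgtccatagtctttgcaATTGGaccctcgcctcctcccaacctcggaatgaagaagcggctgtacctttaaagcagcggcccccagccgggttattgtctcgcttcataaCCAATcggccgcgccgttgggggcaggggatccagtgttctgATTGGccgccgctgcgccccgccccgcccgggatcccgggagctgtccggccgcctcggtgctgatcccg
On both strands CCAAT occurred 3 times in the Actl6b window and 0 times in that of Actl6a, and 37.9% of 27025 promoters held it. Both are rich in G and C, with 61.7% in Actl6b and 63.7% in Actl6a. Of the 8 members matched in the promoter table, Dpf1 (2 times) and Dpf3 (3 times) also held CCAAT, and Phf10, Ss18l1, Smarca4 and Smarca2 did not. The GC box GGGCGG was in all 8 windows, 3 times in Actl6a and 2 times in Actl6b, and in 35.9% of all promoters, so of the 3 motifs searched only CCAAT separated these 2 genes. TTCAGCACC, the first part of the element that REST binds, was in 0 of the 8 windows and in 0.359% of all promoters.

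Levels also differed between the tables, which were not tested against each other. Phf10 ranged from 12.9 to 21.4 RPKM in the stages and from 19.1 to 22.7 RPKM in neural stem cells, but from 2.18 to 5.83 RPKM in both overexpression sets. Dpf1 had 17.2 to 38.2 RPKM in the stages and 17.5 to 21.5 RPKM in neural stem cells, but 2.42 to 5.02 RPKM in the first set and 9.49 to 9.97 RPKM in the neuron set. Actl6a was highest in the first set (72.3 to 93.5 RPKM), while Smarca4 kept to 53.0 to 88.9 RPKM in all 18 libraries. Genes that share over 90% of their exon bases with the other strand had a median difference of −4.10 log2 units between the other tables and the stages (33 genes), beside −0.19 for 4489 genes that share none. The part of strand in the levels of Actl6a and Phf10 between tables was not tested.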

How the data were processed

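The deposited RPKM values were used as the authors gave them, in 4 separate tables that each list 32941 genes. Per the submitters' processing notes, STAR 2.7.9a, HTSeq 0.6.0 and the build mm10 were used; whether reads were counted by strand is not given in the sources used here. The 9 members and all gene lists were chosen with earlier results of these data known.

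Genes averaging 1 RPKM or more over the libraries compared were fitted with limma 3.58.1 (R 4.3.3; empirical Bayes with a trend) on log2(RPKM + 1), a scale that understates the change of low genes. Tests were two-sided, p-values were adjusted by the Benjamini-Hochberg method over all genes fitted, and genes under 0.05 were called. Pex7sh against Scramble, PLA1 against Ctrl1 and Neuron-PLA against Neuron-ctrl each used their own 4 libraries, the stages a slope on embryonic day over 6 libraries, and the difference between sets all 8 overexpression libraries. Multiplying RPKM by exon length (GENCODE M21) and library total gave whole reads, within 0.01, for 97.5% to 97.8% of values of a library; these reads served 95% Poisson intervals and limma-voom, and Ss18, whole in 1 of 18 libraries, was left out of limma-voom. Other steps used Python 3.11.15 and pandas 2.3.3.

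The text names all 9 members, the targeted genes, and the 5 genes most correlated with Actl6a and with Actl6b. From each of 3 pathway lists it names up to 4 called genes of smallest adjusted p per comparison. For the difference between sets, the called genes of these lists are counted but not named. Mrpl47 and 1600012H06Rik were added because they overlap members. Alternatives were another pseudocount, no filter, median-ratio and upper-quartile scaling, no trend, limma-voom, a replicate block, late against early stages, and each library left out. The procedure was tested on simulated data: false calls exceeded the nominal rate, mostly among genes with few reads, and the criterion for passing was set on better-covered genes after the first criterion had failed. Among members with recovered reads, only Dpf3 was that low.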

Additional observations from a re-analysis of the deposited data

Results flagged for a closer look

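The effect of PLAAT3-PEX11 overexpression differed between the neuron set and the first set, by a test of the difference itself, for 4 members. As the change in the neuron set minus that in the first set on the log2 scale, the difference was 0.85 for Actl6b, 0.78 for Ss18l1, 0.72 for Dpf1 and −0.91 for Phf10. Leaving out libraries ended the calls of Dpf1 and Phf10, as given above, and did not end those of Actl6b and Ss18l1. Pan-neuronal markers (7 of 12 with a positive called difference) and proliferation markers (6 of 9 with a negative one) moved beside them, and their part was not tested.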

How the results depend on the processing

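Of 498 values of members under other settings, 427 kept their direction and their side of the threshold, 44 lost a call, 5 gained one and 22 changed sign; the cause was not tested. In PLA1 against Ctrl1, no filter on low values left 0 members called higher and 2 lower, with 614 genes higher and 563 lower instead of 1900 and 1538; median-ratio scaling and limma without a trend each left 1 member higher. In the neuron set, where 42 genes were higher and 56 lower, no filter gave 0 and 0, no trend 2 and 2, and limma-voom 186 and 153. Late against early stages called 0 members higher and 0 lower, and 0 genes either way, instead of 2528 and 3300 genes with the slope. For the difference between sets, 0 members were lower under a pseudocount of 0.1, no filter or upper-quartile scaling, and no filter gave 380 genes higher and 381 lower instead of 642 and 725. Smarca2 passed there with median-ratio (adjusted p = 0.0438) and upper-quartile scaling (adjusted p = 0.0439), and Ss18l1 passed over the stages with both (adjusted p = 0.0331 and 0.0471) in limma.

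With the replicate number as a block, 1 gene was lower in Pex7sh against Scramble, 23 genes were higher and 31 lower in the neuron set, and 0 members were lower in the difference between sets. Deviations of same-numbered libraries correlated at 0.0101, 0.0991 and 0.0468 in the 3 comparisons. These correlations cannot show whether same-numbered libraries shared a preparation, and the labels do not say.

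Leaving out 1 library at a time gave 1 to 1 members higher and 3 to 5 lower in PLA1 against Ctrl1, and 867 to 1870 genes higher and 708 to 1424 lower. The low counts were 867 and 708 without Ctrl1 replicate 1 and 1046 and 1002 without PLA1 replicate 2. The neuron set had 4 to 42 genes higher and 1 to 121 lower. Over the stages, 3 to 4 members and 1270 to 2406 genes were higher, and 3 to 4 members and 1267 to 3079 genes lower, with the lowest counts of genes (1270 and 1267) without E18. The difference between sets had 2 to 2 members higher and 0 to 1 lower, and 321 to 544 genes higher and 315 to 674 lower, with 321 and 315 without Ctrl1 replicate 1, 349 and 395 without Ctrl1 replicate 2, 408 and 482 without Neuron-ctrl replicate 2, and 393 lower without PLA1 replicate 2.

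The sign changes were of changes that were not called. In the neuron set, Smarca4 was −0.0063 with upper-quartile scaling and −0.0013 with limma-voom. With 1 library left out, the log2 changes ran in Pex7sh against Scramble from −0.16 to 0.14 for Ss18l1, −0.15 to 0.13 for Dpf1, −0.25 to 0.22 for Ss18, −0.20 to 0.14 for Actl6a, −0.091 to 0.15 for Phf10, −0.038 to 0.15 for Actl6b and −0.16 to 0.044 for Smarca2. In the neuron set they ran from −0.084 to 0.046 for Actl6b, −0.066 to 0.067 for Smarca4, −0.32 to 0.055 for Actl6a, −0.12 to 0.085 for Phf10, −0.021 to 0.093 for Smarca2 and −0.054 to 0.010 for Dpf1. Where leaving out a library leaves 1 in a group, that library is assumed to vary like the others. Depth limited Dpf3 most, with 21 to 62 reads in the neuron set.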
